A study of Mus musculus with 8 samples.

Results

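Peaks of open chromatin at transcription termination sites were examined in microglia of Nlrp3 knockout and wild-type mice. A peak belonged to this class when the authors' annotation placed it at the termination site of a transcript and named neither a CpG island nor a repeat there. Of the 67822 listed peaks, 1217 (1.79%) on chromosomes 1 to 19 met these criteria. The annotation named a termination site for 1229 peaks in all, of which 11 lay on chromosome X and 1 on an unplaced scaffold. RNA polymerase II transcribes past the polyadenylation signal before it is released, so the stretch just beyond an annotated gene end is transcribed without entering the mature mRNA. Such stretches are also the space between neighbouring genes, and they can hold enhancers of the gene that ends there or the promoter of the next gene.

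The assay was ATAC-seq, which uses a transposase to cut exposed DNA and attach sequencing adapters to it. The cells were microglia, macrophages that live in the brain, purified by their CD11b on magnetic columns from dissociated forebrain without myelin. The knockout was Nlrp3-/-, for which the labels also give the gene name Cias1 and the source Millennium Pharmaceuticals, and the other was wild type on a C57BL/6N background, each with 4 libraries and no treatment named. Nlrp3 encodes the sensor of an inflammasome, the complex that activates caspase-1 and leads to mature IL-1β. The labels give neither age nor sex, and they do not tie the libraries to separate animals. The p-values therefore reflect the spread among these samples only, and part of it may be technical. Transcript levels were not measured.

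The annotation calls a termination site from 100 bp before to 1000 bp after a transcript end, so where these peaks lie follows from how they were chosen. For 911 of the 1217 peaks the strand of the ending gene was known from RefSeq, and 835 of these (91.7%) had their centre in that window around the RefSeq gene end. Another 74 lay further inside the gene and 2 further out, and the RefSeq gene end can differ from that of the annotated transcript. Within the window, 808 of 835 (96.8%) lay beyond the end, and the quartiles of the distance were 252, 521 and 759.5 bp. Most of that window lies beyond the end, so these values describe the class and are no finding about it. The transcripts that ended there were coding in 1013 cases and non-coding in 204, and by gene type there were 1025 peaks at protein-coding genes, 108 at lncRNA genes and 61 at microRNA genes. The accession was matched to a RefSeq gene for 1207 peaks and not for 10. They belonged to 1090 genes, of which 108 had more than 1 peak and 9 had 3. Widths ran from 201 to 2280 bp with a median of 272 bp, close to the 268 bp of all listed peaks.

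**Figure D1:**
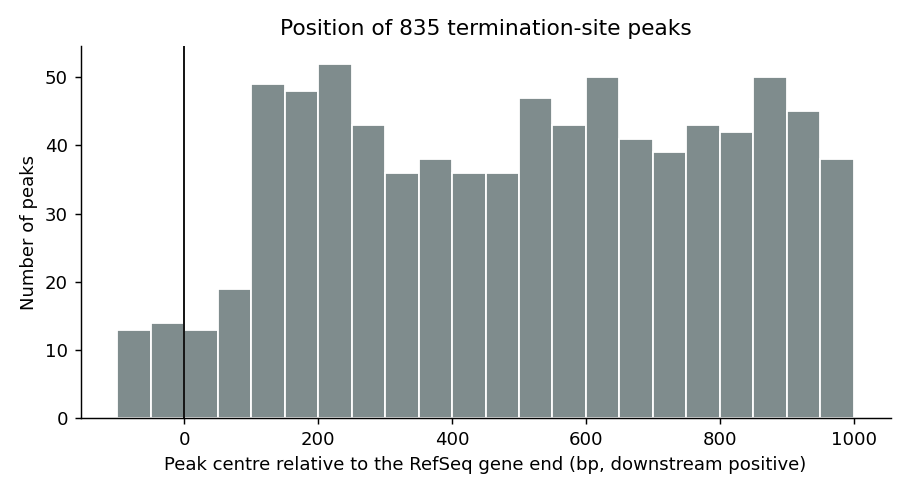
Number of termination-site peaks in 50 bp bins of the distance between the peak centre and the RefSeq gene end, for the 835 peaks with a known strand that lay between 100 bp before and 1000 bp after the end. Downstream is positive, the vertical line marks the end, and 808 of the 835 lie to its right.

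Gene ends were often close to another gene. The nearest transcription start site carried a gene name other than that of the ending gene for 622 peaks (51.5%). For 585 peaks it carried the same name. Names of the starts came from the deposited table, those of the ending genes from RefSeq, and they were compared as written. A gene named differently in these sources would count among the 622. The median distance to a start site was 5447 bp, with 164 peaks within 1 kb, 425 at 1 to 5 kb, 463 at 5 to 20 kb and 165 farther away. All 164 peaks within 1 kb lay downstream of that start, at 101 bp or more, which the annotation fixes: 0 of the listed peaks from 1 kb before to 100 bp after a start lacked a promoter annotation. The peak centre fell in the body of another protein-coding gene for 319 peaks and in the body of no other gene for 835. Chromosome 7 held 128 of them, 2.85% of its listed peaks, the highest share among the 19 chromosomes.

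For 27 peaks the region overlapped the window that surrounds the start of another gene in RefSeq, from 250 bp before to 50 bp after it. The 250 bases upstream of these starts had a median GC content of 58.4%, against 52.4% over the 32851 upstream windows of RefSeq genes. The median ratio of observed to expected CpG was 0.57, against 0.37 over all windows, and it exceeded 0.6 in 12 of the 27, against 34.0% of all windows. The polyadenylation hexamer AATAAA, searched on the strand of the downstream gene and its complement, occurred in 6 of the 27 (22.2%), against 18.1% of all windows. None of these figures is a test, and 11 of the 27 windows overlapped the body of another gene. Of the 6 windows that were at least 100 bases under the peak and lay outside every gene body, the 3 with the densest peaks are printed below to show how a gene end can be the upstream region of the next gene. They are the 250 bases before the start, 5′ to 3′ on the strand of the starting gene, from RefSeq on GRCm38.p6, and capitals mark the bases under the termination-site peak.
Tpi1 upstream, end of Usp5, chr6:124814159-124814408, minus strand: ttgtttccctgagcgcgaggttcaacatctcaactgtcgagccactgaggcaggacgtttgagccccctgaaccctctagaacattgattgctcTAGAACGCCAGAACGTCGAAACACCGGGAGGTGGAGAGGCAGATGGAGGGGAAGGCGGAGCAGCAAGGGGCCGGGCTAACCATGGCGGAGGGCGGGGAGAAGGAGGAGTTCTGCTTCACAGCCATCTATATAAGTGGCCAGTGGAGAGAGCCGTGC
B3galt4 upstream, end of Rps18, chr17:33951489-33951738, minus strand: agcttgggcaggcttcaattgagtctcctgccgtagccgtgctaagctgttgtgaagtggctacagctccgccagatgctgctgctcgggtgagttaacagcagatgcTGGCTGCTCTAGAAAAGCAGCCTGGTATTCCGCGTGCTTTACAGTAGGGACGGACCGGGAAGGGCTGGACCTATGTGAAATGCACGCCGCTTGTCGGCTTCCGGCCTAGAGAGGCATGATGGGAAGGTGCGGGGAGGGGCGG
Mvp upstream, end of Pagr1a, chr7:127014595-127014844, minus strand: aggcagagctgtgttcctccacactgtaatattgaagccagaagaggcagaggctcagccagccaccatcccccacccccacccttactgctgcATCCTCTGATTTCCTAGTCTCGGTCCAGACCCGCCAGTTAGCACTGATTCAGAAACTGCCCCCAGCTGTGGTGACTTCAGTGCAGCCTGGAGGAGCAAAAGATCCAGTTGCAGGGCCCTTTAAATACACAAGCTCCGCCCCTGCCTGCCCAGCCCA

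In each of the 3 the peak covered the bases next to the start: 156 of 250 at Tpi1, 142 at B3galt4 and 156 at Mvp. Tpi1 encodes the glycolytic enzyme triosephosphate isomerase, and Usp5, which ends in front of it, a ubiquitin protease. B3galt4 encodes a galactosyltransferase and Rps18 a ribosomal protein, while Mvp encodes the major vault protein. The CpG ratio was 0.63 at Tpi1 and 0.67 at B3galt4 but 0.15 at Mvp, so these upstream regions were not alike in CpG content. The tag density of the peak, in tags per kb and per 1000000 tags in peaks averaged over the 8 libraries, was 88.9 at Tpi1, 33.2 at B3galt4 and 28.5 at Mvp. No window of a peak overlapped the start of its own gene.

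MicroRNA genes are so short that a peak at their annotated end is close to the hairpin itself. The 61 peaks at microRNA genes belonged to 52 genes, 11 of them overlapped the hairpin, and the peak centre lay from 5 bases before to 965 bases after the hairpin end with a median of 532. The median density was 27.6, against 32.3 over all termination-site peaks. The 3 densest peaks that overlapped a hairpin were at Mir7687 (chr8:120538698-120538979, density 98.8), Mir5130 (chr14:102982270-102982579, 94.1) and Mir449c (chr13:113035973-113036199, 85.6). Their mature sequences, from RefSeq on GRCm38.p6, are given 5′ to 3′ with the seed, bases 2 to 8, in capitals, to identify the RNAs encoded there.
mmu-miR-7687-5p: aGGCGGGGaaccugaggcgcaggcu
mmu-miR-7687-3p: cCACUCAGucgccccgccaca
mmu-miR-5130: cUGGAGCGcgcgggcgaggcaggc
mmu-miR-449c-5p: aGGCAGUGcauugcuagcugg
mmu-miR-449c-3p: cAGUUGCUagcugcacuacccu

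No seed was shared by 2 of the microRNA genes with a peak, and 49 of the 52 had a mature sequence in the table. Between the genotypes the log2 fold change, knockout over wild type, was -0.03 at Mir7687, 0.10 at Mir5130 and 0.10 at Mir449c. Of the 50 microRNA peaks tested, 1 (2.0%, against 4.83% of all tested peaks) had an unadjusted p under 0.05, at Mir7077 (13.1 CPM in knockout and 7.71 CPM in wild-type libraries, log2 fold change 0.61). CPM stands for tags per 1000000 tags in the tested peaks after TMM scaling, which evens out libraries on the assumption that most peaks do not differ.

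The targeted gene checked the labels. Its promoter peaks held 1 and 2 tags in the 4 knockout libraries together, against 58 to 80 and 54 to 69 in each wild-type library. No termination-site peak ended Nlrp3 or was assigned to it. Total tags were 11325865 to 15521580, and 6.68%, 4.96%, 20.9% and 26.2% of them fell in peaks in knockout replicates 1 to 4, against 17.5%, 9.79%, 12.8% and 14.4% in wild-type replicates 1 to 4. The median termination-site peak thus held 9, 8, 22 and 29 tags in the knockout libraries, against 20, 14, 18 and 20 in the wild-type libraries. Of 8 microglial markers, 7 had a promoter peak, with Aif1 lacking one, and their promoter peaks summed to 211 to 277 CPM in knockout and 213 to 239 CPM in wild-type libraries. Promoter peaks of the neuronal, astrocyte, oligodendrocyte, endothelial and border macrophage markers existed for 1 or 2 genes of each list, at 3.07 to 22.97 CPM in knockout and 2.85 to 16.5 CPM in wild-type libraries. None of the 5 lymphocyte and granulocyte markers had one. Chromosome Y held 88 tags in knockout replicate 3, 201 and 255 in wild-type replicates 3 and 4, and 1 to 13 in the other 5 libraries.

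Termination-site peaks were less open than promoter peaks and slightly more open than peaks in exons and UTRs, and they did not differ from intergenic peaks near genes beyond the spread between libraries. The median density was 29.9 to 38.1 at termination sites, depending on the library, against 27.7 to 33.4 in 3210 exon and UTR peaks, 30.9 to 36.1 in 7424 intergenic peaks within 20 kb of a start site, and 48.6 to 60.6 in 12867 promoter peaks. Against exon and UTR peaks the log2 difference was 0.13 ± 0.03 (SD over 8 libraries) and positive in 8 of 8 (exact sign-flip permutation p = 0.0078, two-sided, adjusted over 3 comparisons to 0.0117). Against promoters it was -0.67 ± 0.20 and negative in 8 of 8 (exact permutation p = 0.0078, adjusted 0.0117), and 0.0078 is the smallest p that 8 libraries allow. Against intergenic peaks it was -0.01 ± 0.05, above 0 in 3 libraries and below 0 in 5 (exact permutation p = 0.44), and the range over libraries was -0.07 to 0.08. With peaks that passed the filter on low counts alone, that difference was -0.05 (exact permutation p = 0.023).

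**Figure D2:**
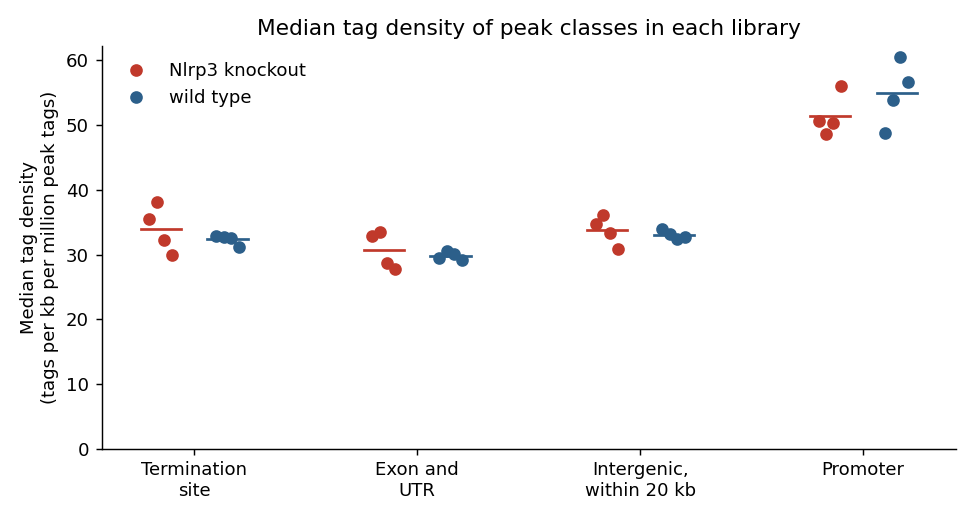
Median tag density (tags per kb and per 1000000 tags in peaks) of 4 peak classes in each library, with knockout points left of wild-type points and lines at the group means. Termination-site medians lie between 29.9 and 38.1, overlap those of intergenic peaks and stay below every promoter median, the lowest of which is 48.6.

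Ends of genes with 3 peaks were denser, with a median density of 52.1 over 27 peaks, against 32.3 over all 1217. The single most accessible gene end was that of Gm2a, the GM2 ganglioside activator needed for lysosomal glycolipid breakdown, 639 bp past the gene on chromosome 11 (55113534 to 55113802). It held 96.5, 87.1, 112 and 112 CPM in knockout replicates 1 to 4, against 113, 76.6, 78.0 and 102 CPM in wild-type replicates 1 to 4. The ranges overlapped and the log2 fold change was 0.16 (SE 0.13). The next were the ends of Fgf11 (86.8 ± 10.8 CPM in knockout and 82.2 ± 2.48 in wild type, SD over 4 libraries each) and Rilpl1 (83.7 ± 9.12 and 84.0 ± 8.41). The peak at Fgf11, a fibroblast growth factor family gene, lay 483 bp inside Chrnb1, an acetylcholine receptor subunit gene. Likewise the end of Tmc4 lay 258 bp past the start of Leng1, that of Camta2 493 bp past that of Spag7, and that of Bbs7 829 bp past that of Ccna2, the cyclin A2 gene. The dense ends of Polr3gl, an RNA polymerase III subunit gene, and Rin2 were 10089 and 14644 bp from a start site. Over Fgf11, Rilpl1, Tmc4, Polr3gl, Rin2, Camta2 and Bbs7 the log2 fold changes ran from -0.0033 to 0.12, so these gene ends differed by less than the spread between libraries. The widest termination-site peak, 2280 bp at 6430706D22Rik, whose transcript was not matched to RefSeq, varied widely within genotypes: 153, 199, 37.3 and 28.1 CPM in knockout replicates 1 to 4, against 48.7, 99.8, 71.7 and 21.4 CPM in wild-type replicates 1 to 4. Its log2 fold change of 0.62 (SE 0.42) turned to -0.85 without knockout replicates 1 and 2, the libraries with the lowest share of tags in peaks.

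No termination-site peak passed the test between the genotypes. Of the 1217, 1054 passed the filter on low counts and were tested, and 0 had an adjusted p under 0.05 (edgeR quasi-likelihood test, Benjamini-Hochberg over 58135 peaks), where 0.17% of all tested peaks did. At an unadjusted p under 0.05 there were 59 (5.60%), against 4.83% of all tested peaks. Of these, 44 (4.17%) were higher and 15 (1.42%) lower in knockout libraries, against 2.61% and 2.22% of all tested peaks. The levels of the 4 knockout libraries lay above all 4 wild-type levels for 21 peaks (1.99%, against 1.68% of all tested peaks) and below them for 5 (0.474%, against 1.49%). DESeq2 also gave 0 at its adjusted p, and 39 at an unadjusted p under 0.05. Scaled to all tags of the library in place of tags in peaks, 0 had an unadjusted p under 0.05. The median log2 fold change was 0.02, against 0.0037 over all tested peaks, and the values ran from -1.596 at Tmem267 to 1.14 at Klf2. For 819 peaks (77.7%) the 95% interval lay within a 2-fold change in either direction, and 5 estimates exceeded 2-fold.

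**Figure D3:**
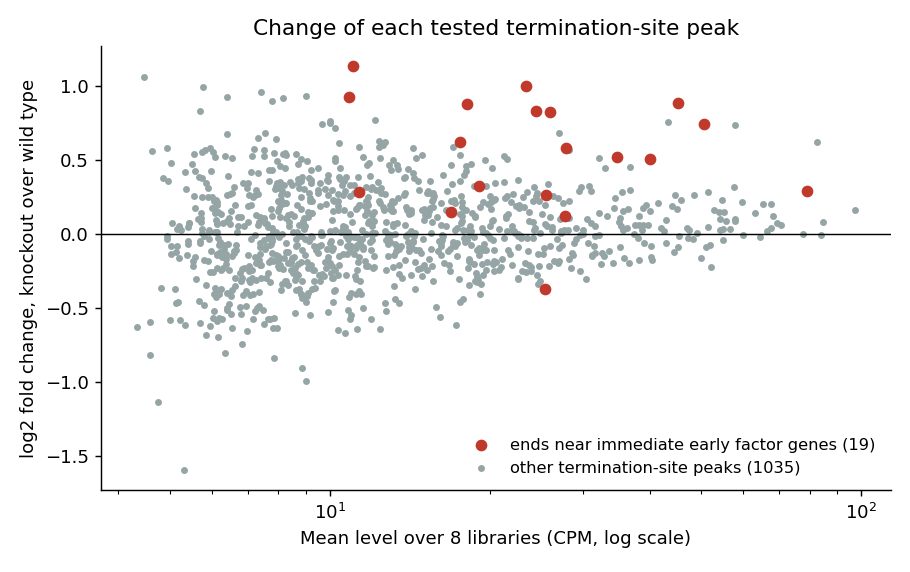
The log2 fold change, knockout over wild type, of each of the 1054 tested termination-site peaks against its mean level over the 8 libraries (CPM, log axis). The 19 peaks at the ends of immediate early factor genes (16) or at the end of Prdx2 with Junb as the nearest start (3) are drawn in red, and 18 of them lie above 0.

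The share of tags in the class as a whole did not differ between genotypes beyond the spread. Termination-site peaks took 1.76%, 1.81%, 1.72% and 1.58% of the tags in peaks in knockout replicates 1 to 4, against 1.72%, 1.62%, 1.61% and 1.61% in wild-type replicates 1 to 4. The means were 1.72% ± 0.096 in knockout and 1.64% ± 0.055 in wild type. The difference of 0.075 percentage points gave a two-sided p of 0.257 in the exact permutation test, in which 4 against 4 libraries can reach 0.0286. Knockout replicates 1 and 2 lay above all wild-type libraries, replicate 3 above 3 of the 4, and replicate 4 below all of them.

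Of the 44 gene-end peaks that were higher in knockout libraries at an unadjusted p under 0.05, 12 ended an immediate early transcription factor gene (10) or ended Prdx2 with Junb as the nearest start (2). The factor genes (Fos, Fosb, Jun, Junb, Jund, Egr1, Atf3 and Klf2) encode DNA-binding proteins. Transcription of most of them is induced within minutes of a stimulus, and the name immediate early is used here for all 8. Fos, Jun and Atf proteins pair to form AP-1 factors. They are part of a list of 30 myeloid and immediate early factors, 11 of which were the ending gene or the nearest start of a termination-site peak, and were grouped after their values were seen. All 19 peaks, 16 at the ends of the 8 genes and 3 at the end of Prdx2, passed the filter and 0 had an adjusted p under 0.05, while 12 of 19 had an unadjusted p under 0.05, every one higher in knockout libraries, against 2.61% of all tested peaks. The median log2 fold change was 0.58, and 18 of 19 lay above 0. Over the 16 peaks at the ends of the factor genes themselves, 10 had an unadjusted p under 0.05, the median was 0.55 and 15 lay above 0. Except at Jund, each of these gene ends held more than 1 of the peaks, some of them adjacent. The peaks are therefore not independent of one another, and these counts are descriptions. The inner Klf2 peak among them was on the authors' knockout list alone.

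The summed levels show how the libraries differed. The 19 peaks summed to 706, 723, 719 and 427 CPM in knockout replicates 1 to 4, against 531, 382, 325 and 462 CPM in wild-type replicates 1 to 4. Knockout replicates 1 to 3 lay above every wild-type library, and knockout replicate 4 lay within the wild-type range. Without the Prdx2 ends, the 16 peaks summed to 614, 635, 617 and 375 CPM in knockout libraries, against 464, 342, 284 and 416 CPM in wild-type libraries, in the same order. The share of tags in peaks was 26.2% in knockout replicate 4, 20.9% in replicate 3, and 6.68% and 4.96% in replicates 1 and 2. The part of this share in the result was not tested. The 16 promoter peaks of the factor genes summed to 541, 462, 562 and 604 CPM in knockout libraries, against 523, 604, 613 and 601 CPM in wild-type libraries, with a median log2 fold change of -0.09 and no unadjusted p under 0.05 in either direction. Among the 197 other tested peaks assigned to these genes, 31 had an unadjusted p under 0.05 and were higher in knockout libraries and 2 were lower, against 2.61% and 2.22% of all tested peaks, and the median was 0.12. Heat shock genes are another rapidly induced class. The 5 peaks at the ends of Hspa1a and Hspa1b, which encode inducible HSP70 chaperones, summed to 122, 254, 188 and 41.4 CPM in knockout libraries, against 172, 84.3, 133 and 184 CPM in wild-type libraries, with a median of -0.19.

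**Figure D4:**
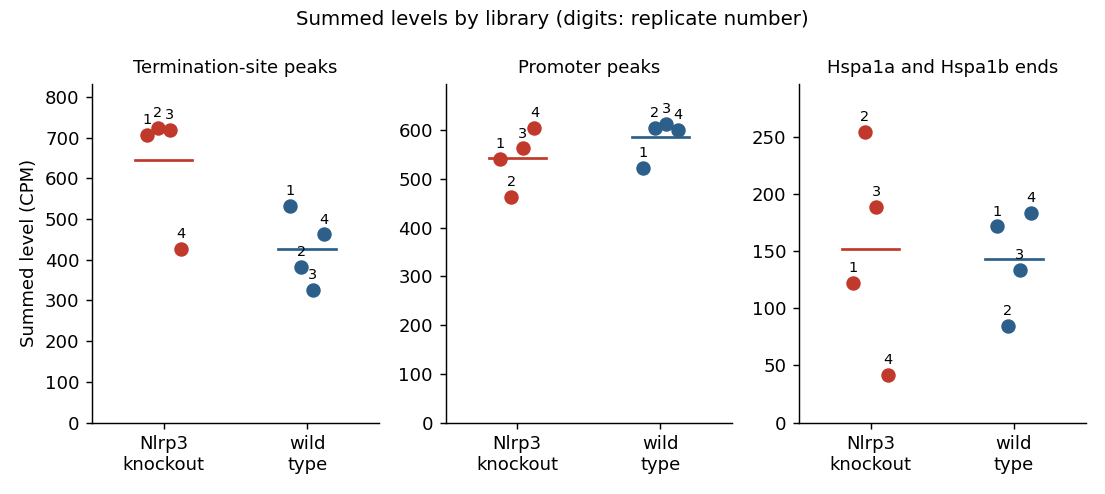
Summed CPM per library over the 19 termination-site peaks that end an immediate early factor gene (16) or end Prdx2 with Junb as the nearest start (3; left), the 16 promoter peaks of the factor genes (middle) and the 5 termination-site peaks of Hspa1a and Hspa1b (right), with knockout left of wild type in each panel, replicate numbers above the points and lines at the means. In the left panel knockout replicates 1 to 3 (706 to 723) lie above the wild-type range (325 to 531) and replicate 4 (427) lies within it.

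The smallest p belonged to the space between Prdx2 and Junb on chromosome 8, genes that converge on each other. Prdx2 encodes a peroxiredoxin, an antioxidant enzyme, and Junb an AP-1 subunit, and this space held 6 termination-site peaks, 3 annotated to each gene. The peak 140 bp past the end of Prdx2 (84974796 to 84975106) held 38.6, 29.5, 38.6 and 19.7 CPM in knockout replicates 1 to 4, against 19.4, 12.6, 15.9 and 12.6 CPM in wild-type replicates 1 to 4. Every knockout library lay above every wild-type library, by a small margin for knockout replicate 4. The log2 fold change was 1.00 (SE 0.23, 95% interval 0.52 to 1.48), with an unadjusted p of 0.00021 and an adjusted p of 0.0986. Going toward Junb, the log2 fold changes were 0.83 and 0.15 at the other Prdx2 peaks, then 0.28, 0.32 and -0.37 at the 3 Junb peaks. The last of these, 196 bp past the end of Junb, had 22.7 ± 4.96 CPM in knockout and 28.0 ± 6.12 CPM in wild-type libraries. Neighbouring peaks of the same intergenic space therefore had estimates of opposite sign, and the difference between them was not tested.

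Atf3, which encodes a stress-induced factor of the ATF family, ended in a pair of peaks on chromosome 1 for which the deposited table gives Fam71a as the nearest start. The outer one (191169542 to 191169893) held 43.4, 32.5, 28.5 and 24.3 CPM in knockout replicates 1 to 4, against 17.9, 11.2, 16.5 and 20.96 CPM in wild-type replicates 1 to 4. Again no knockout library fell among the wild-type ones, with a log2 fold change of 0.83 (SE 0.22, adjusted p 0.243). The inner one had 21.7 ± 7.62 CPM in knockout and 13.5 ± 3.64 CPM in wild-type libraries.

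Klf2, a Krüppel-like factor gene, had the largest positive estimate. Its inner peak, 228 bp past the end (chromosome 8, 72321732 to 72322033), held 15.7, 25.1, 16.2 and 6.15 CPM in knockout replicates 1 to 4, against 6.96, 6.32, 8.54 and 3.26 CPM in wild-type replicates 1 to 4. Knockout replicate 4 lay below 3 wild-type libraries, and the log2 fold change was 1.14 (SE 0.37, adjusted p 0.668). This peak was on the authors' knockout list alone, so its higher level in knockout libraries follows in part from how it was listed. Fosb, which encodes an AP-1 subunit, had 24.9 ± 12.8 CPM in knockout and 11.3 ± 4.89 CPM in wild-type libraries at the peak 523 bp past its end, where knockout replicate 4 held 7.12 CPM. Egr1, a zinc finger factor gene, had the highest levels of the set after Jun: 74.8, 53.1, 84.3 and 42.4 CPM in knockout replicates 1 to 4 and 57.2, 35.8, 18.8 and 37.7 CPM in wild-type replicates 1 to 4 at one peak. The log2 fold changes of the Egr1 pair were 0.75 (SE 0.23) and 0.89 (SE 0.26).

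Fos and Jun had smaller differences. The Fos peak 710 bp past the end had 34.2 ± 8.43 CPM in knockout and 21.3 ± 3.58 CPM in wild-type libraries (log2 fold change 0.58, SE 0.21), and the peak 166 bp past the end 29.0 ± 7.05 CPM in knockout and 22.03 ± 5.51 CPM in wild-type libraries (0.27, SE 0.22). The main Jun peak, the most open of the set, held 73.6, 109, 101 and 68.3 CPM in knockout replicates 1 to 4, against 82.0, 61.1, 60.3 and 77.8 CPM in wild-type replicates 1 to 4, with overlap between the genotypes and a log2 fold change of 0.29 (SE 0.15). Jund, another AP-1 subunit gene, had 29.2 ± 3.84 CPM in knockout and 26.3 ± 5.39 CPM in wild-type libraries (0.12, SE 0.19).

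The other named peaks without overlap between genotypes also failed the adjusted test. Among those higher in knockout libraries, the end of Btg2, an antiproliferative gene that is itself an early response gene, had 3 peaks. The outermost, 947 bp past the end, held 10.9, 20.7, 11.4 and 10.0 CPM in knockout replicates 1 to 4, against 9.45, 6.32, 5.12 and 7.92 CPM in wild-type replicates 1 to 4 (log2 fold change 0.72, SE 0.30), and the others had 0.52 and 0.32. The peak at the end of Ckb, the brain creatine kinase gene, had 17.7 ± 2.53 CPM in knockout and 12.05 ± 1.93 CPM in wild-type libraries (0.54, SE 0.22), while the other 2 Ckb peaks had 0.05 and -0.09. The ends of Atg9b, an autophagy gene, and Ifitm5, of the interferon-induced transmembrane family, had 38.2 ± 3.92 and 25.6 ± 2.39 CPM in knockout libraries, against 27.8 ± 5.10 and 17.5 ± 3.14 CPM in wild-type libraries. Those of Ripor3 and the non-coding gene 1500012K07Rik had 12.9 ± 2.12 and 8.46 ± 0.50 CPM in knockout libraries, against 7.15 ± 1.23 and 4.35 ± 1.08 CPM in wild-type libraries. For Ripor3 and 1500012K07Rik the log2 fold changes were 0.76 and 0.93, and the peaks lay 421 and 12886 bp inside the RefSeq gene. The outermost Btg2 peak and the 1500012K07Rik peak were on the authors' knockout list alone. Their higher level in knockout libraries follows in part from that listing. The Atg9b peak lay in the body of Nos3.

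Lower in every knockout library than in every wild-type library were 5 peaks (0.474%, against 1.49% of all tested peaks). Each had a mean of at least 10 tags. The end of Ttll1, a tubulin glutamylase subunit gene, held 6.03, 4.43, 4.39 and 4.21 CPM in knockout replicates 1 to 4, against 8.95, 6.32, 7.97 and 8.38 CPM in wild-type replicates 1 to 4 (log2 fold change -0.80, SE 0.33). That of Cldn14, a tight junction claudin gene, had 12.5 ± 4.55 CPM in knockout and 19.8 ± 3.33 CPM in wild-type libraries (-0.56, SE 0.23). Castor1, which encodes an arginine sensor of the mTORC1 pathway, Fmod, which encodes fibromodulin, and Ehd2 had -0.40, -0.53 and -0.28. The unadjusted p were 0.0215 at Ttll1 and 0.0243 at Cldn14, and 0.0628, 0.0658 and 0.206 at Castor1, Fmod and Ehd2.

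Several peaks outside the naming rule, chosen after their values were seen, had small unadjusted p. The end of Zswim4 on chromosome 8 (84209776 to 84210768) held 112, 54.6, 70.3 and 55.6 CPM in knockout replicates 1 to 4, against 58.7, 41.5, 30.7 and 39.1 CPM in wild-type replicates 1 to 4 (log2 fold change 0.74, SE 0.20, adjusted p 0.287). Only wild-type replicate 1 reached the knockout levels. Neat1, the lncRNA that scaffolds paraspeckles, had 56.4 ± 23.3 CPM in knockout and 30.2 ± 12.8 CPM in wild-type libraries at the peak from 5841333 to 5841949 on chromosome 19 (0.76, SE 0.27), which is the end of its short transcript. Another peak at that end, from 5842095 to 5842538, had 0.22 (SE 0.26). A Neat1 peak from 5824171 to 5824512 was not tested. In the other direction, Pank4, a pantothenate kinase family gene, held 6.03, 10.3, 5.71 and 4.21 CPM in knockout replicates 1 to 4, against 11.9, 12.6, 8.54 and 12.6 CPM in wild-type replicates 1 to 4 (-0.99, SE 0.31, adjusted p 0.575).

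Lists of microglial genes held few termination-site peaks. A peak counted for a list when it ended a listed gene or had the start of one as its nearest. Of 23 homeostatic microglia genes 7 had such a peak, 1 of them by its start alone. None of 9 peaks had an unadjusted p under 0.05, against 4.83% of all tested peaks, a share too small to expect 1 among 9. The median log2 fold change was 0.17, against 0.0037 over all tested peaks. The densest was between Coro1c and Selplg, which encodes a selectin ligand, with 58.3 ± 13.1 CPM in knockout and 51.2 ± 7.31 CPM in wild-type libraries. At the end of Csf1r, the receptor that microglia need to survive, there were 21.5 CPM in knockout and 15.3 CPM in wild-type libraries (0.48). The Csf1r peak lay in the body of Hmgxb3. Of 23 disease-associated microglia genes, 4 ended at 7 peaks and 3 (Cd52, Apoe and Ctsb) were the nearest start of 3 more, at the ends of Crybg2, Tomm40 and Fdft1. The median was 0.22 over the 9 tested. The ends included Axl, a receptor kinase for apoptotic cells, with 49.0 ± 3.83 CPM in knockout and 49.0 ± 3.99 CPM in wild-type libraries. The ferritin gene Fth1 had -0.60 and -0.51 at its tested pair, the first of them on the authors' wild-type list alone. The Axl peak lay in the body of Hnrnpul1 and the Fth1 peaks in that of Best1. The inflammasome and IL-1 list had 2 of 24 genes with 3 peaks. Its densest was at Txnip, whose product binds thioredoxin and NLRP3, with 14.2 ± 4.86 CPM in knockout and 8.93 ± 3.81 CPM in wild-type libraries (0.52, SE 0.31), and the other Txnip peak had 0.17.

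The NF-kB and cytokine list had 9 peaks at 7 of 32 genes, 1 of them by its start alone, with a median of 0.08, and Nfkbia, the NF-kB inhibitor gene, had 0.05 and 0.25. Its densest peak, at the end of Mapkapk2 and 33505 bp past the start of Il10, had 56.7 ± 6.32 CPM in knockout and 51.6 ± 7.89 CPM in wild-type libraries. The interferon list had 4 peaks at 3 of 24 genes, 1 of them by its start alone (median -0.06), of which the end of Cdhr5 near Irf7, a factor that drives type I interferon, had 16.2 ± 2.63 CPM in knockout and 13.2 ± 2.04 CPM in wild-type libraries. Of 29 glutamine and TCA cycle genes, 2 had 4 peaks (median -0.22). Glul, which encodes glutamine synthetase, had 34.0 ± 3.60 CPM in knockout and 30.1 ± 4.24 CPM in wild-type libraries at its denser peak (0.14, SE 0.17). Psat1, an enzyme of serine synthesis that consumes glutamate, had 7.71 CPM in knockout and 13.6 CPM in wild-type libraries at the inner peak (-0.67, unadjusted p 0.042) and -0.44 at the outer. The inner Psat1 peak was on the authors' wild-type list alone, so its lower level in knockout libraries follows in part from that listing. The lysosome and phagocytosis list had 5 peaks at 5 of 32 genes (median -0.18), among them Itgb2, the integrin chain that pairs with CD11b, with 11.1 ± 1.77 CPM in knockout and 12.1 ± 2.61 CPM in wild-type libraries. The 15 antigen presentation genes and the 24 genes of polyadenylation and termination had 0 termination-site peaks. The markers of other brain cells had 2, at Mbp, the myelin basic protein gene (19.02 ± 6.25 CPM in knockout and 19.9 ± 4.01 CPM in wild-type libraries), and at Tubb3 (0.35).

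**Figure D5:**
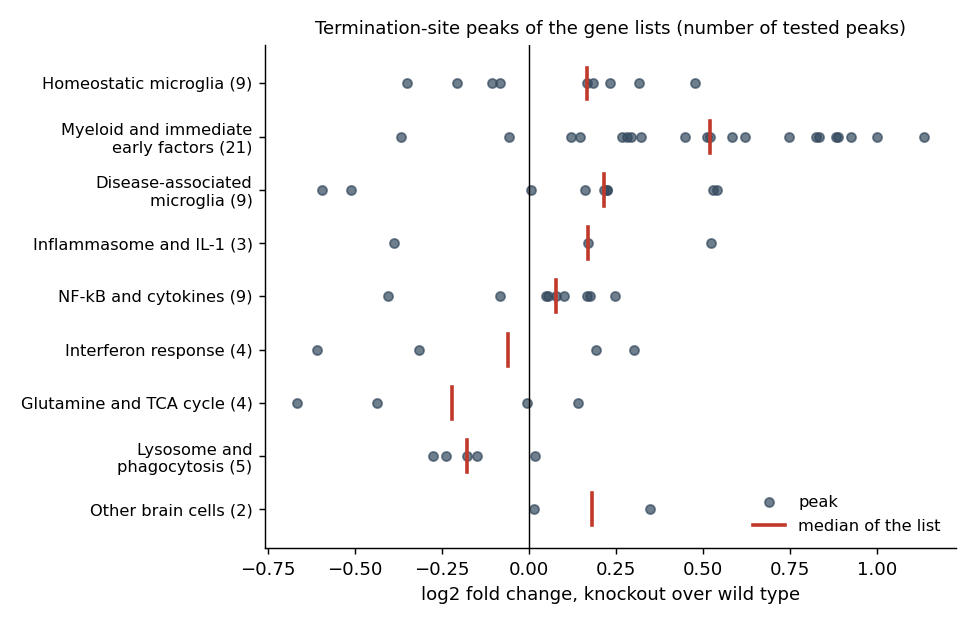
The log2 fold change, knockout over wild type, of each tested termination-site peak of 9 gene lists, with the number of tested peaks in brackets and a red line at each list's median. Medians run from -0.22 for the glutamine and TCA cycle list to 0.52 for the myeloid and immediate early factors, where 19 of 21 points lie above 0.

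In the myeloid factor list as a whole, 22 peaks (18 ending a listed gene, 4 by the nearest start alone), 21 of them tested, had a median log2 fold change of 0.52, and 13 had an unadjusted p under 0.05, against 4.83% of all tested peaks. Besides the immediate early genes it held the end of Tnpo3 near Irf5, a factor for inflammatory cytokine genes (23.6 CPM in knockout and 16.8 CPM in wild-type libraries, 0.45), the end of Cebpa (-0.06) and an untested peak at Bhlhe41. The list includes the neighbouring peaks of the immediate early set, so its peaks are not independent of one another. The median was 0.39 to 0.66 over all alternatives run. The count of 13 dropped to 8 without knockout replicate 3, without knockout replicates 1 and 2 together, and with robust moderation, and to 0 when counts were scaled to all tags of the library, where the share of tags in peaks, 4.96% to 26.2% in knockout libraries, enters every level.

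The share of peaks with an unadjusted p under 0.05 differed by position. Of the 136 tested peaks within 1 kb of a start site, 1 (0.735%) did (median log2 fold change -0.03), against 6.74% of the 371 at 1 to 5 kb, 6.37% of the 408 at 5 to 20 kb and 5.04% of the 139 farther away, with 4.83% over all tested peaks. In the bodies of other coding genes the share was 2.97% of 269, and in no other gene body 6.82% of 733. Peaks at coding transcripts (5.77% of 884) and at non-coding ones (4.71% of 170) had medians of 0.02 and -0.0055. The 19 peaks of the immediate early set, 12 of them with an unadjusted p under 0.05, all lay in the classes at 1 to 5 kb and 5 to 20 kb. The shares were not recomputed without them. These shares are descriptions, and no difference between them was tested.

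The authors' lists were made from the same libraries and are no independent evidence. Both lists held 917 of the termination-site peaks (75.3%, against 75.5% of all peaks), the knockout list alone 91 and the wild-type list alone 209. Peaks on both lists had a median log2 fold change of 0.03 and a median density of 39.8. Those on the knockout list alone had 0.42 over 35 tested peaks, and those on the wild-type list alone had -0.22 over 121.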

How the data were processed

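Per the file headers, the merged peak list joins the knockout and the wild-type IDR lists, and the authors counted tags in each peak with HOMER, taking at most 3 tags per position. The deposited raw table holds these counts. In the deposited normalized table the authors' signal is the tag number brought to 10000000 tags per library, and it equalled the scaled raw counts to within 0.0050. Per the submitters' processing notes, Bowtie2, HOMER, DESeq2 and mm10 were used. Versions, alignment settings, any shift of read ends and duplicate removal were not given in the sources used here. Per the labels' protocols, fragments of 165 to 250 bp were sequenced for 51 cycles from one end.

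The raw counts of all 67822 peaks in the 8 libraries were fitted in a single model of genotype, using edgeR 4.0.16 in R 4.3.3 (quasi-likelihood F test, TMM, filterByExpr with a minimum count of 10, Benjamini-Hochberg adjustment over 58135 peaks, threshold 0.05). CPM, mean ± SD and fold changes come from this fit, with 4 libraries per genotype, and 95% intervals use its moderated degrees of freedom. Peaks with no gene name (117, holding 0.134% of peak tags) stayed in the fit. Depth limits precision: a median peak held 8 to 29 tags.

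Density comparisons used log2(tags per kb and per 1000000 tags in peaks + 1), the median over peaks per library, and exact sign flips over 8 libraries. The share of tags used an exact permutation over 70 splits. Alternatives were DESeq2 1.42.0, other scalings, filters and moderation, a replicate block and leaving out libraries. The least different replicate pair, knockout replicates 1 and 2, had a chi-square per degree of freedom of 1.21. Knockout replicates 3 and 4 had 1.44, and pairs of replicate 1 or 2 with 3 or 4 had 1.75 to 2.54. No library was counted as a copy of another. The value of 1.21 cannot show that replicates 1 and 2 are separate samples, since repeats of 1 sample would give a value near 1.

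The gene of a peak is that of the annotated transcript, matched to RefSeq (GRCm38.p6), and the nearest start is the deposited one. List counts take either. The gene end comes from RefSeq and may differ from that of the annotated transcript. Named peaks were, in each direction, the 8 with the smallest unadjusted p among those with at least 10 tags on average and no overlap between genotypes, the 10 with the highest mean, and the highest peak of each of 11 lists of 277 genes. The peak class, the lists and the rule were chosen with earlier results of these data known.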

Additional observations from a re-analysis of the deposited data

Results flagged for a closer look

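A single library stood far from the other 3 of its genotype in 3 of 64 groups of 4 values examined, and chance alone flags about 1 in 20 groups. At the outermost Btg2 peak, knockout replicate 2 held 20.7 CPM, against 10.0 to 11.4 CPM in the other knockout libraries. At the end of Ttll1, knockout replicate 1 held 6.03 CPM, against 4.21 to 4.43 CPM in the other knockout libraries. In the share of tags in peaks that fell at termination sites, wild-type replicate 1 had 1.72%, while the other wild-type libraries had 1.61% to 1.62%.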

How the results depend on the processing

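The count of 0 termination-site peaks passing the test held under most alternatives. It became 6 without knockout replicate 4 (range 0 to 6 over the libraries left out), 3 with the replicate block and 1 with robust moderation. The 6 were at Prdx2, Egr1, Klf2, Neat1 and a pair at Fosb, the 3 at Prdx2, Neat1 and Zswim4, and the 1 at Prdx2 (adjusted p 0.0283, against 0.00410 without knockout replicate 4 and 0.0172 with the block). The Klf2 peak was on the authors' knockout list alone. Deviations of same-numbered libraries correlated at -0.0078, 0.096, -0.0083 and 0.147. Without the values of other pairs beside them, these do not settle whether replicate numbers pair the samples. The number with an unadjusted p under 0.05 was 41 to 85 over the libraries left out, 87 without knockout replicates 1 and 2, 39 with DESeq2 and 0 with scaling to all tags, which moved the median of all tested peaks to 0.09. The class median log2 fold change ran from -0.02 to 0.10. The difference in the share of tags kept its sign (0.045 to 0.120 points over libraries left out) and stayed short of the threshold. Density against exon and UTR peaks (0.11 to 0.14) and promoters (-0.71 to -0.58) kept its side. Against intergenic peaks it was -0.0545 (exact permutation p = 0.023) with peaks passing the count filter. The cause of these moves was not tested. Of 495 values of 31 named peaks, 28 changed sign, in 6 peaks, but only 2 by more than 1 SE: 6430706D22Rik at -0.85 without knockout replicates 1 and 2, and Mbp at -0.24 without knockout replicate 3. Low depth in knockout replicates 1 and 2 (medians of 9 and 8 tags) limits single peaks.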
